A study of Mus musculus with 12 samples.

Results

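The cytosolic and mitochondrial heat shock proteins are described here through 10 genes, taken as the rows whose gene name is Hspa1a, Hspa1b, Hspa8, Hsp90aa1, Hsp90ab1, Hspd1, Hspe1, Hsph1, Dnaja1 or Dnajb1. They are 10 of 54532 genes listed. Of these 10, 8 had a mean of at least 1 FPKM (fragments per kilobase of transcript, scaled to the library's reads) over the 12 libraries and entered the tests, which covered 11550 genes; Hspa1a and Hspa1b did not pass that filter. RNA was sequenced from activated mouse primary CD8+ T cells given Accell siRNA, in 4 groups of 3 libraries. The siNTC group received a non-targeting siRNA and DMSO, and is labelled WT. The siNTC+TVA group received the same siRNA and trans-vaccenic acid (TVA), a trans fatty acid of ruminant fat, at 20 µM by the study's methods. The siCreb1 group received siRNA against Creb1 and DMSO, is labelled as a Creb1 knockdown, and stands for cells with less of the transcription factor CREB1. The siCreb1+TVA group received that siRNA and TVA. All 4 groups were labelled 24 h. The comparisons ask what TVA changes, what the knockdown changes, and whether the effect of TVA differs between the siRNAs.

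Molecular chaperones bind unfolded or partly folded proteins and release them through cycles of ATP binding and hydrolysis. HSP70 proteins take up short exposed stretches with the help of J-domain proteins, HSP110 proteins exchange their nucleotide, HSP90 proteins act later on clients such as kinases and steroid receptors, and the HSP60 and HSP10 chaperonin folds proteins inside mitochondria. Some of these genes are expressed in all growing cells, others are held low until heat shock factor 1 is activated by unfolded protein, and T cell activation is known to raise several of them.

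Reads were recovered from the FPKM values as whole numbers, and totalled 16660234 to 24602484 per library. The totals moved with the siRNA: siNTC libraries held 17523623 to 20758033, siNTC+TVA 16660234 to 20263843, siCreb1 20760297 to 22192484 and siCreb1+TVA 21804748 to 24602484. The library size that the authors' scaling implies, divided by the recovered total, was 0.987 to 0.999 in siNTC, 0.999 to 1.004 in siNTC+TVA, 1.005 to 1.007 in siCreb1 and 1.013 to 1.017 in siCreb1+TVA. These differences are of the order of a few percent, as are several of the changes below, and their part in the results was not tested beyond the other scalings given beside each result. The labels do not say whether the 3 libraries of a group came from separate cultures or animals, so the p-values measure a spread between libraries that may be technical. Pairs of replicates varied 3.71 to 5.69 times as much as read counting alone would give.

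Creb1, the target of the siRNA (ENSMUSG00000025958, chr1:64532645-64604548, plus strand, GRCm38), was measured at 10.98, 10.3 and 10.5 FPKM in the siNTC libraries and at 1.19, 1.29 and 1.77 FPKM in the siCreb1 libraries. With TVA the levels were 11.03, 11.97 and 12.4 FPKM in siNTC cells and 1.81, 1.67 and 1.17 FPKM in siCreb1 cells. Every library given siCreb1 was far below every library given siNTC. The mean level left was 13.4% without TVA and 13.1% with TVA. Averaged over TVA, the difference in log2(FPKM + 1) was -2.30 (SE 0.0756; limma, adjusted p = 7.88e-08), lower in 6 of 6 libraries. An exact two-sided permutation test of 6 against 6 libraries gave p = 0.00216, the smallest it can give.

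The CD8+ T cell label was checked against fixed marker lists. All 8 CD8 T cell markers passed the filter and summed to 2253 to 2375 FPKM, led by Cd8b1, a chain of the CD8 coreceptor, at a mean of 887 FPKM. Their sum was 2362 to 2375 FPKM in the siNTC arms and 2253 to 2283 FPKM in the siCreb1 arms. Averaged over TVA the knockdown changed all 8 in limma, in both directions, beside 9.53% of all tested genes called higher and 11% lower. Of the 8, 5 were lower (Cd8b1 -0.15, Cd3d -0.14, Cd2 -0.11, Cd3g -0.10 and Lck -0.06 on the log2 scale). The other 3 were higher (Gzmb 0.24, Cd3e 0.10 and Cd8a 0.09). Over all genes the balance of these calls moved with the scaling, as given below for this average. Of the B cell markers 3 of 5 were under 1 FPKM and the list summed to 9.48 to 14.2 FPKM, most of it Cd79b at a mean of 9.63 FPKM. Of the myeloid markers 5 of 6 were under 1 FPKM and Lyz2 was the most abundant, at a mean of 6.19 FPKM. The 4 other T cell markers summed to 8.29 to 10.2 FPKM, led by Trdc at 5.12 FPKM, and the 4 NK cell markers to 32.8 to 36.8 FPKM, led by Eomes, which CD8+ T cells also express, at 29.6 FPKM. All 5 erythroid markers were under 1 FPKM, and Hba-a2 and Hbb-bs were at 0 in every library.

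The levels of the members spanned several orders of magnitude. Over the 12 libraries the mean level was 536 FPKM for Hspa8, 517 for Hsp90ab1, 111 for Hspe1, 88.0 for Hspd1, 80.1 for Hsp90aa1, 34.9 for Dnaja1, 26.9 for Dnajb1, 12.5 for Hsph1, 0.210 for Hspa1b and 0.0231 for Hspa1a. The constitutive cytosolic forms therefore stood at the top and the inducible HSP70 pair at the bottom. The ranges of Hspa8 and Hsp90ab1 overlapped, with Hspa8 higher in 10 of 12 libraries. Those of Hspd1 and Hsp90aa1 also overlapped, with Hspd1 higher in 12 of 12, as did those of Hspa1b and Hspa1a, with Hspa1b higher in 11 of 12. All other neighbours in this order were separate in every library. Hspa8 and Hsp90ab1 together made up 74.0% to 75.5% of the summed FPKM of the 10 genes. Within a group the coefficient of variation ran from 1.71% for Hsp90ab1 to 4.80% for Dnajb1 among the 8 tested members, beside a median of 3.95% for tested genes with a mean of at least 10 FPKM.

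**Figure D1:**
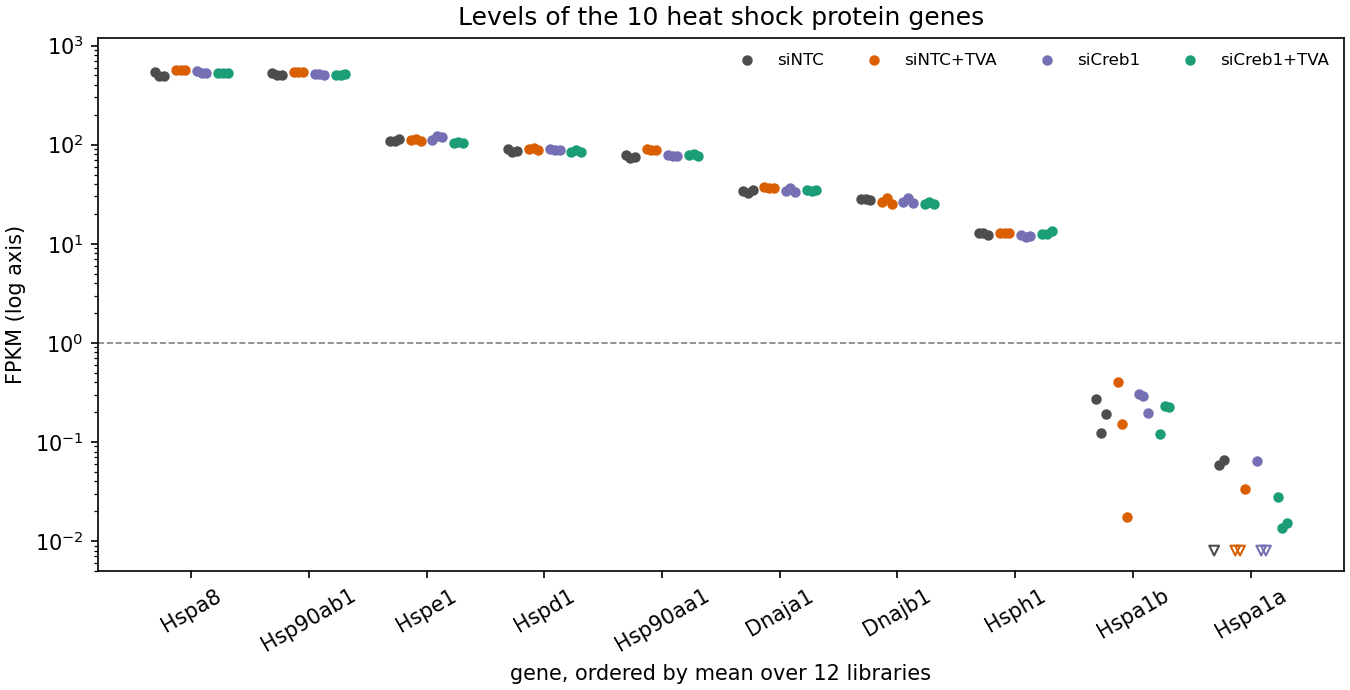
Level of each of the 10 heat shock protein genes in each of the 12 libraries, in FPKM on a log axis, by group. The dashed line is at 1 FPKM, and open triangles mark libraries in which a gene was listed at 0. Hspa8 and Hsp90ab1 stand between 495 and 569.5 FPKM in every library, and Hspa1a and Hspa1b stand below 1 FPKM.

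Hspa8 encodes the constitutive HSP70 of the cytosol, HSC70 (ENSMUSG00000015656, chr9:40800984-40810087, plus strand). It was measured at 544, 495 and 497 FPKM in siNTC and at 569.5, 562 and 564 FPKM in siNTC+TVA. All 3 libraries with TVA were above all 3 without, and siNTC replicate 1 was the closest of the controls. In bulk RNA, fewer cells of a type and less RNA per cell cannot be told apart. The change was 0.14 on the log2 scale (SE 0.0338; limma, adjusted p = 0.0286), or 10.5% with a 95% interval of 4.88% to 16.3%. It was called in 12 of 21 alternatives; it was lost without siNTC replicate 2 or 3 or any siNTC+TVA library (adjusted p up to 0.0940), and also with no filter, after TPM, with no mean-variance trend and in a fit of only the libraries compared (up to 0.143). In siCreb1 cells the levels were 551, 533 and 526 FPKM without TVA and 528, 525 and 532 FPKM with it. These groups overlapped, and the difference was -0.02 (adjusted p = 0.903). The difference between the siRNAs in the effect of TVA was -0.17 (SE 0.0478, limma adjusted p = 0.124), which did not pass the threshold. That difference was called in 2 of 20 alternatives, by limma-voom on the recovered reads (adjusted p = 0.00363) and without siNTC replicate 1 (0.00801).

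Hspa1a and Hspa1b encode the stress-inducible HSP70 and lie 9951 bases apart on the minus strand (Hspa1a ENSMUSG00000091971, chr17:34969190-34972156; Hspa1b ENSMUSG00000090877, chr17:34956436-34959238). Their longest annotated transcripts are 86.6% identical over 2977 aligned positions and share a run of 638 bases, and 58.8% of the 50-base stretches of Hspa1a also occur in Hspa1b. Reads from the shared stretches cannot be told apart by sequence, and how the authors' counting placed them is not given in the sources used here. Of the 250 bases before the start, 98.8% are the same in both genes, with 3 positions that differ. The RefSeq sequences of these windows (GRCm38.p6) are shown because the pair are the members that heat shock factor 1 is best known for inducing; capitals mark a match to GAANNTTC, an inverted pair of heat shock element units, which begins 104 bases before the start in both.
Hspa1a, chr17:34972157-34972406, minus strand: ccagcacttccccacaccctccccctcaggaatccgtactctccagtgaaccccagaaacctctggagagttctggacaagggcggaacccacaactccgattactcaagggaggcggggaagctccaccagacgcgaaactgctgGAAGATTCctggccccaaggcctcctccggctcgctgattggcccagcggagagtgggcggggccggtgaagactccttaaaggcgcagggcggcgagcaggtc
Hspa1b, chr17:34959239-34959488, minus strand: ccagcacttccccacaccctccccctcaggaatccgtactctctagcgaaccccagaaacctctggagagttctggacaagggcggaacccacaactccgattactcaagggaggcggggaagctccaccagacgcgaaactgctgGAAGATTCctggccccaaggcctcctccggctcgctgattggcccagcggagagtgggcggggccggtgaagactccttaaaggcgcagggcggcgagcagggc
The difference between these windows is small, and the capitals fall on the same letters in both.

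Hardly a read was assigned to the pair, and no fold change is given for Hspa1a. Hspa1a held 0, 3 and 4 reads in the siNTC libraries, 0, 0 and 2 in siNTC+TVA, 4, 0 and 0 in siCreb1, and 2, 1 and 1 in siCreb1+TVA. Hspa1b held 15, 6 and 11 reads in siNTC, 21, 7 and 1 in siNTC+TVA, 18, 18 and 12 in siCreb1, and 8, 16 and 14 in siCreb1+TVA. Over all 12 libraries that is 17 reads for Hspa1a, with 5 libraries at 0, and 147 reads for Hspa1b. Summed over the pair the level was 0.235 ± 0.0467 FPKM in siNTC, 0.202 ± 0.183 in siNTC+TVA, 0.284 ± 0.0890 in siCreb1 and 0.210 ± 0.0545 in siCreb1+TVA (mean ± SD, n = 3). The groups overlapped in all 4 pairwise comparisons, and a difference was not detectable at this depth. With no filter, which lets both genes into the tests, neither was called in any of the 7 comparisons.

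**Figure D2:**
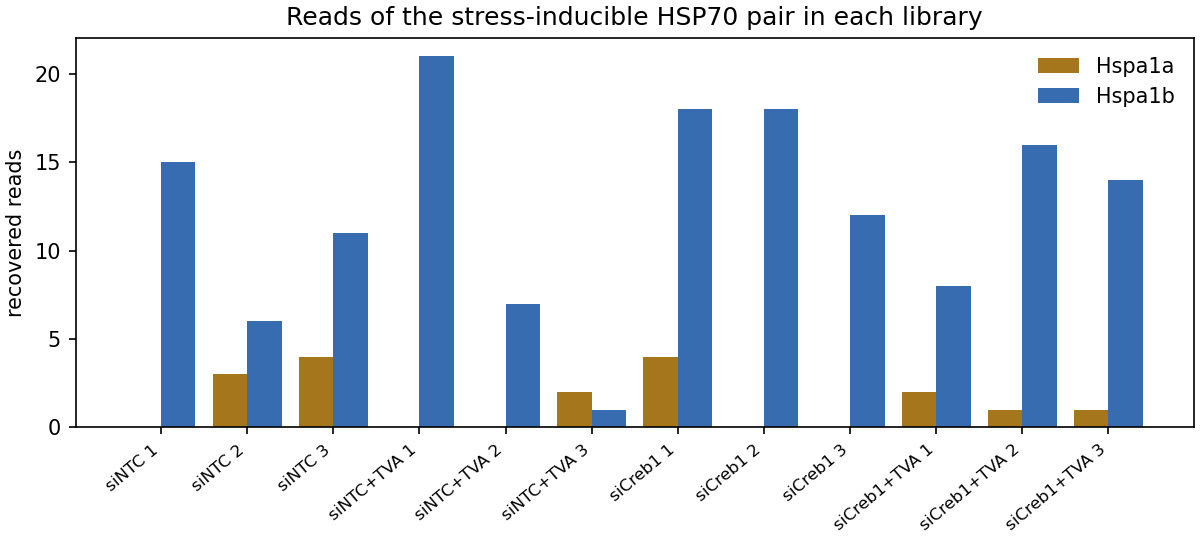
Recovered reads of Hspa1a and Hspa1b in each library, by group. The counts run from 0 to 4 for Hspa1a and from 1 to 21 for Hspa1b, and the groups overlap.

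Hsph1 encodes HSP110, a nucleotide exchange factor for HSP70 that is itself induced by heat (ENSMUSG00000029657, chr5:149614287-149636376, minus strand). It was measured at 12.8, 12.8 and 12.2 FPKM in siNTC, 12.8, 12.8 and 12.7 in siNTC+TVA, 12.3, 11.8 and 11.9 in siCreb1, and 12.5, 12.6 and 13.3 in siCreb1+TVA. Only in siCreb1 cells did the libraries with TVA all lie above those without, and the difference there was 0.09 (adjusted p = 0.434). Its interaction term was 0.07 (adjusted p = 0.564), and none of its comparisons passed the threshold in limma or in any alternative analysis.

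Dnaja1 and Dnajb1 encode J-domain proteins that bring clients to HSP70 and start its ATP hydrolysis (Dnaja1 ENSMUSG00000028410, chr4:40722150-40737149, plus strand; Dnajb1 ENSMUSG00000005483, chr8:83608193-83612653, plus strand). Dnaja1 was measured at 33.9, 32.8 and 34.6 FPKM in siNTC and 37.0, 36.7 and 36.1 in siNTC+TVA. The TVA libraries were all higher, but the difference of 0.11 did not pass the threshold (SE 0.0319; adjusted p = 0.0606); it was called in 3 of 21 alternatives, limma-voom on the recovered reads among them. In siCreb1 cells Dnaja1 stood at 34.1, 36.4 and 33.6 FPKM without TVA and 34.6, 34.0 and 34.5 with it, which overlapped. Dnajb1, induced by heat in many cells, was measured at 28.1, 28.3 and 27.7 FPKM in siNTC, 26.4, 28.8 and 25.2 in siNTC+TVA, 26.2, 28.8 and 26.1 in siCreb1, and 25.3, 26.7 and 25.0 in siCreb1+TVA. Replicate 2 was the highest Dnajb1 library of every group, and the groups overlapped in each of the 4 pairwise comparisons tested. Its differences ran from -0.07 to -0.05 in the 4 pairwise comparisons, with adjusted p from 0.480 to 0.722.

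Hsp90aa1 encodes HSP90 alpha, the more inducible of the cytosolic HSP90 forms (ENSMUSG00000021270, chr12:110690605-110702728, minus strand). It was measured at 78.4, 73.3 and 75.4 FPKM in siNTC and at 89.6, 88.1 and 87.8 FPKM in siNTC+TVA. The lowest TVA library was well above the highest control. In siCreb1 cells it was measured at 78.2, 77.2 and 76.8 FPKM without TVA and at 78.0, 81.4 and 77.6 FPKM with it, which overlapped; replicate 2 was the high TVA library. In siNTC cells TVA raised it by 0.22 on the log2 scale (SE 0.0277; limma, adjusted p = 0.000646), or 16.8% with a 95% interval of 11.9% to 21.8%, higher in 3 of 3 libraries. It was called there in 21 of 21 alternative analyses, with values of 0.20 to 0.25. In siCreb1 cells the difference was 0.03 (adjusted p = 0.817), with a 95% interval of -2.20% to 6.48%.

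The test of whether the effect of TVA on Hsp90aa1 differed between the siRNAs gave an interaction term of -0.19 (SE 0.0392; limma, adjusted p = 0.0306). This call was kept in 5 of 20 alternatives, over which the adjusted p ran from 0.00385 to 0.192 and the value from -0.22 to -0.16. It was kept without siNTC replicate 1 (adjusted p = 0.0145) and without siCreb1+TVA replicate 2 (0.0253), and lost without any of the other 10 libraries, where the largest adjusted p was 0.0806. Under TVA, siCreb1 cells had less Hsp90aa1 than siNTC cells, by -0.16 on the log2 scale (SE 0.0277; adjusted p = 0.00659), lower in 3 of 3 libraries. That call was lost after quantile normalization and after rescaling to TPM, where the value was -0.11. Without TVA the siRNAs differed by 0.03 (adjusted p = 0.494).

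Hsp90ab1 encodes HSP90 beta, the constitutive form (ENSMUSG00000023944, chr17:45567775-45573271, minus strand). It was measured at 527, 499 and 500.5 FPKM in siNTC, 540.1, 537 and 543 in siNTC+TVA, 512, 519 and 506 in siCreb1, and 504, 504 and 511 in siCreb1+TVA. The TVA libraries of siNTC cells were the highest of all 12, and the siCreb1 groups overlapped each other. In siNTC cells the difference was 0.09 (SE 0.0229; limma, adjusted p = 0.0498), or 6.08% with a 95% interval of 2.42% to 9.88%, just past the threshold. It was called in 5 of 21 alternatives, and among those that leave out a library in 1 of 12, without siNTC replicate 1 (adjusted p = 0.00637); without each other library it was lost, with adjusted p up to 0.141. With TVA, siCreb1 cells were lower by -0.09 (adjusted p = 0.0311), called in 10 of 21 alternatives and lost when any siNTC+TVA or siCreb1+TVA library was left out, with adjusted p up to 0.0956; quantile normalization and TPM gave -0.02 and -0.04, neither called. The interaction term was -0.10 (adjusted p = 0.160), and was called in 2 of 20 alternatives, by limma-voom and without siNTC replicate 1 (adjusted p = 0.0292).

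Transcripts of the HSP90 pair share no 50-base stretch, and their ratio within a library does not depend on the library's scaling. Hsp90ab1 was 6.73 ± 0.0906 times Hsp90aa1 in siNTC, 6.10 ± 0.0762 times in siNTC+TVA, 6.62 ± 0.0916 times in siCreb1 and 6.41 ± 0.207 times in siCreb1+TVA (mean ± SD, n = 3, FPKM over FPKM). The siNTC+TVA libraries, at 6.03 to 6.18, were below all others, the nearest being a siCreb1+TVA library at 6.19. A 3 against 3 exact permutation test cannot go below p = 0.1, and gave that value for siNTC+TVA against siNTC. Dnaja1 over Dnajb1 was 1.20 ± 0.0452 in siNTC, 1.37 ± 0.0849 in siNTC+TVA, 1.28 ± 0.0189 in siCreb1 and 1.34 ± 0.0590 in siCreb1+TVA, with no overlap between siNTC and siNTC+TVA, nor between siNTC and siCreb1, each with the smallest p of the exact permutation test.

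**Figure D3:**
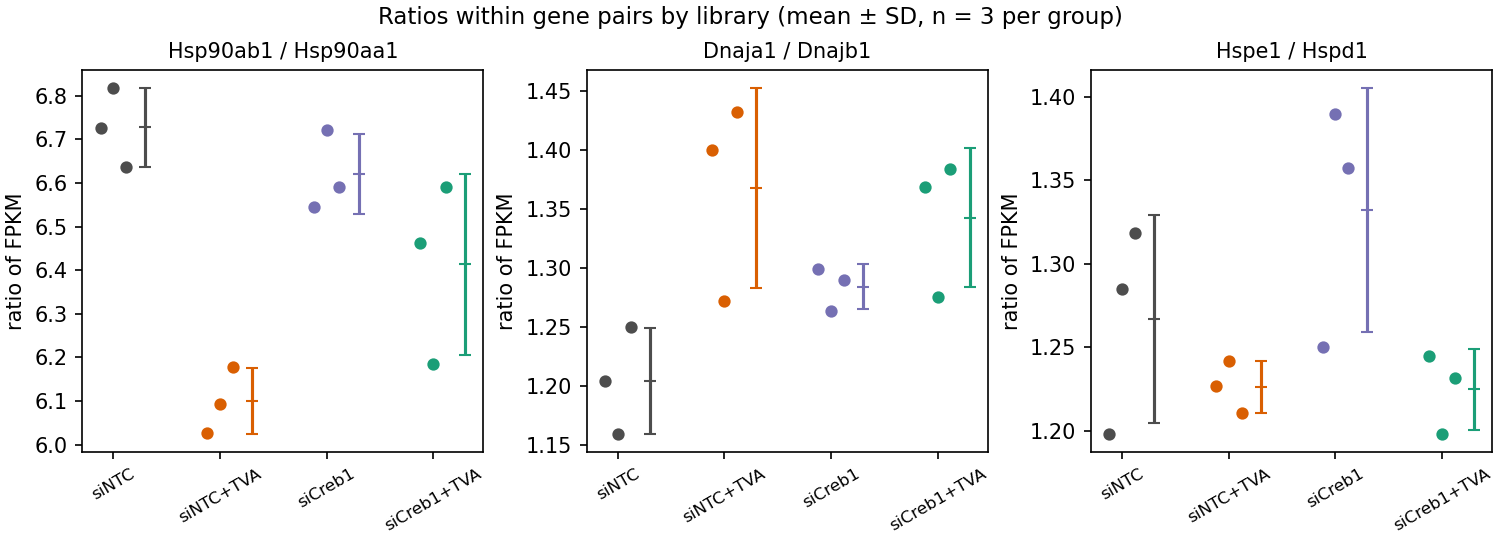
Ratios of FPKM within each library, by group: Hsp90ab1 over Hsp90aa1, Dnaja1 over Dnajb1 and Hspe1 over Hspd1. Points are libraries, and the bars beside them are the mean ± SD of each group (n = 3); the siNTC+TVA libraries have the lowest Hsp90ab1 over Hsp90aa1, at 6.03 to 6.18.

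Hspd1 and Hspe1 encode HSP60 and HSP10, the mitochondrial chaperonin and its lid. They lie head to head (Hspd1 ENSMUSG00000025980, chr1:55077835-55088243, minus strand; Hspe1 ENSMUSG00000073676, chr1:55088132-55091307, plus strand) and overlap by 112 bases. Whether the libraries kept the strand is not given in the sources used here, so reads from the overlap cannot be told apart. Hspd1 was measured at 91.2, 84.3 and 86.4 FPKM in siNTC, 90.1, 92.0 and 89.3 in siNTC+TVA, 89.5, 88.0 and 87.5 in siCreb1, and 84.4, 89.3 and 84.1 in siCreb1+TVA. All 4 groups of Hspd1 overlapped, and none of its comparisons passed the threshold in limma or in any alternative; siCreb1 against siNTC with TVA came closest (-0.07; adjusted p = 0.179). Hspe1 was measured at 109, 108 and 114 FPKM in siNTC, 111, 114 and 108 in siNTC+TVA, 112, 122 and 119 in siCreb1, and 105, 107 and 104 in siCreb1+TVA. The siCreb1+TVA libraries were the lowest of all 12, and siCreb1 replicates 2 and 3 the highest. In siCreb1 cells the difference with TVA was -0.16 (SE 0.0349; adjusted p = 0.103), with a 95% interval of -15.1% to -5.49%, which did not pass the threshold over all genes; limma-voom on the recovered reads called it (adjusted p = 0.0149), and over the 21 alternatives the adjusted p ran from 0.0149 to 0.311. The interaction term for Hspe1 was -0.17 (adjusted p = 0.134).

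**Figure D4:**
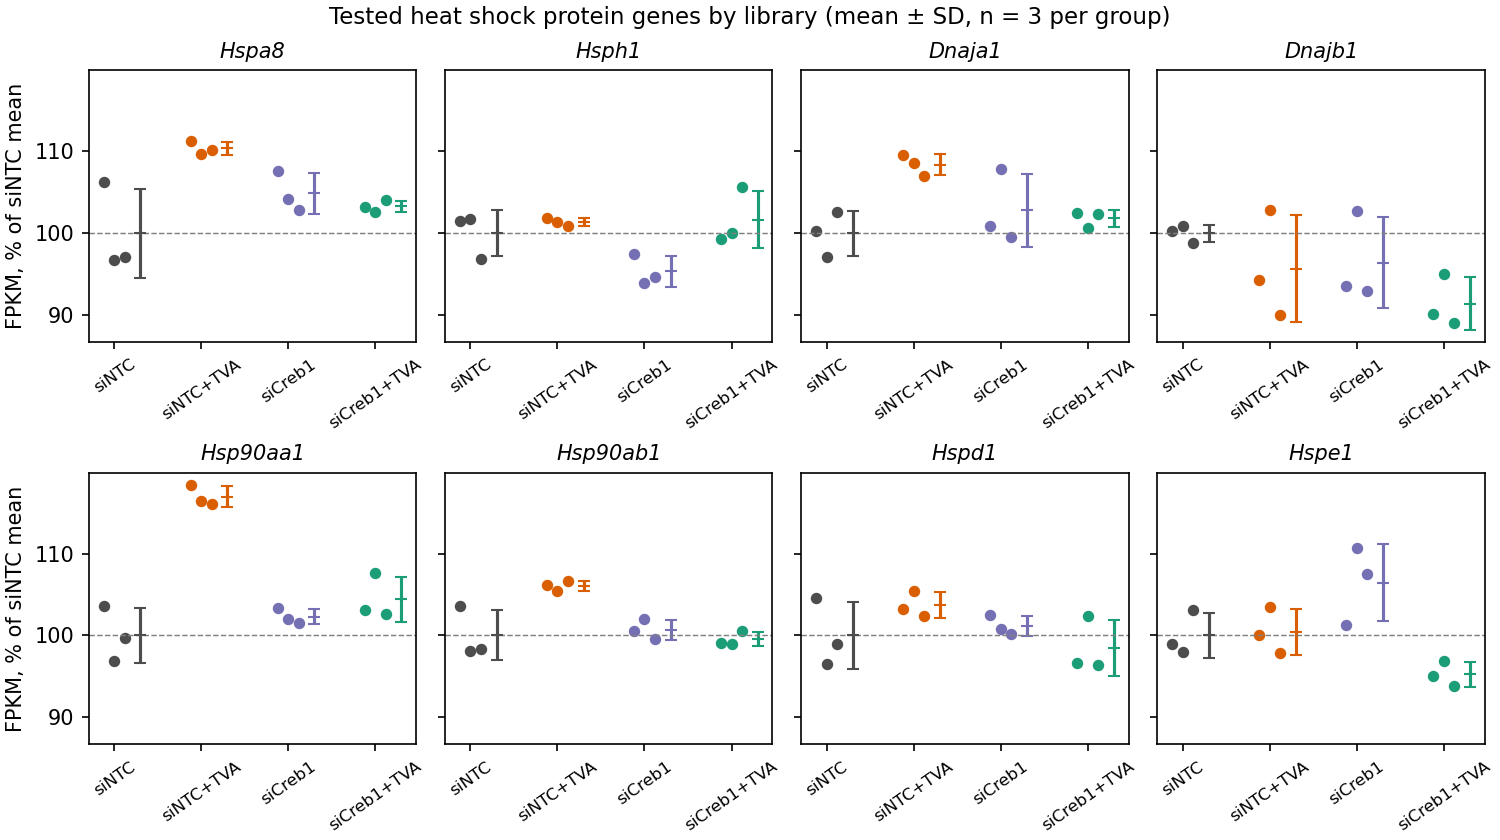
Level of each tested member in each library as a percent of its siNTC mean, by group, with the mean ± SD of each group (n = 3). The siNTC+TVA libraries lie above the siNTC libraries for Hspa8, Hsp90aa1, Hsp90ab1 and Dnaja1.

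Promoter windows from RefSeq (GRCm38.p6), of 250 bases before and 50 after a start, were matched by symbol for 7 of the 10 members, which have 12 windows; Hspa8, Hsp90aa1 and Hsp90ab1 have none in the table. Each motif was searched on both strands. A pair of heat shock element units, GAANNTTC or TTCNNGAA, was in 7 of the 12 windows, from 6 of the 7 members, and in 15.1% of all 32851 windows. A run of 3 units, GAANNTTCNNGAA, overlaps the shorter motif; it was in 4 of the 12 windows, from Hspd1, Hspe1 and Hsph1, and in 0.603% of all windows. The CREB motif TGACGTCA was in 0 of the 12 windows and in 1.79% of all windows, and its core TGACG was in 4 of the 12 and 20.8% of all windows. CCAAT was in 8 of the 12 and 37.4% of all windows, and TATAAA in 0 of the 12 and 13.6%. The windows are not all separate sequence. Those of Hsph1 overlap each other, as do some of Dnaja1, and a window of Hspd1 overlaps that of Hspe1. The same match can therefore be counted in several windows. A match is a description, not a site of binding. Stretches of 30 bases show the units in 3 members, in capitals: in Hspe1 the overlapping matches to the shorter motif begin 89, 84 and 79 bases before the start and lie on bases that a window of Hspd1 also covers, in Hsph1 those shown follow the start, and in Dnaja1 the match begins 124 bases before it.
Hspe1, chr1:55088053-55088082, plus strand: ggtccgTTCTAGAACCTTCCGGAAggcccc
Hsph1, chr5:149636287-149636316, minus strand: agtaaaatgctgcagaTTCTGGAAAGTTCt
Dnaja1, chr4:40722333-40722362, plus strand: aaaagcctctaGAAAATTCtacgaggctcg
Hsph1, Hspd1 and Hspe1 hold the longer run, Hspd1 not in every window. With TVA in siNTC cells they differed by 0.02, 0.05 and 0.01 on the log2 scale, none past the threshold. The members called there, Hspa8, Hsp90aa1 and Hsp90ab1, have no window, so motifs could not be set against the called changes.

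Counted together, TVA in siNTC cells raised 3 members (Hspa8, Hsp90aa1 and Hsp90ab1) and lowered 0 of the 8 tested, beside 4.49% of all 11550 tested genes called higher and 2.88% called lower; 4 members had an unadjusted p under 0.05, and limma-voom on the recovered reads called 4. The median log2 difference of the members was 0.07, beside -0.01 for all tested genes. In 4 members, the 3 called and Dnaja1, the TVA libraries were all above the controls, beside 11.7% of all tested genes, and in 0 they were all below, beside 12.2%. The summed FPKM of the 10 genes was 1334 to 1425 in siNTC and 1466 to 1476 in siNTC+TVA, or 0.473% to 0.504% and 0.528% to 0.533% of the recovered reads. Of all called genes 60.9% were higher, and 72.9% after rescaling to TPM, which gives every library the same total, where the filter at 1 let in 13889 genes and Hsp90aa1 was the member still called. With the same 11550 genes tested, rescaling to TPM gave 72.3% and the same member; this fit was chosen after seeing the data. Immediate early genes sensitive to handling summed to 262 to 274 FPKM in siNTC and 244 to 254 in siNTC+TVA, led by Btg2 at a mean of 92.5 FPKM; of 8 tested, 1 was lower (Zfp36, -0.18, adjusted p = 0.0179). The 4 NK cell markers, with Eomes the most abundant, summed to 32.8 to 34.7 FPKM in siNTC and 35.7 to 36.8 in siNTC+TVA, with a median log2 difference of 0.15; 0 of the 4 were called and 0 were at 0 in every library. The part of either list in the result was not tested.

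TVA in siCreb1 cells gave 0 members higher and 0 lower in limma, beside 0.121% and 0.416% of all tested genes; 2 members had an unadjusted p under 0.05 (Hsph1 and Hspe1), and limma-voom called 1, Hspe1. The median was -0.02, beside 0.00 for all tested genes. The TVA libraries were all above the others for 1 member, Hsph1, beside 8.09% of tested genes, and all below for 1, Hspe1, beside 9.01%. Summed markers of other cells were also separate, from siCreb1 to siCreb1+TVA: other T cell markers at 8.29 to 8.93 and 9.15 to 9.55 FPKM, B cell markers at 10.2 to 11.4 and 11.8 to 12.8, myeloid markers at 5.75 to 7.25 and 8.61 to 9.50, and erythroid markers at 0.119 to 0.281 and 0.327 to 0.446. None of those tested was called, and their part in the values was not tested. Both TVA comparisons use separate libraries, and the test of their difference called 0 members more positive in siCreb1 cells and 1 more negative, Hsp90aa1, beside 0.459% and 1.78% of all tested genes. The median interaction term was -0.11 for the members and 0.00 for all tested genes, and 5 members had an unadjusted p under 0.05. Of all genes called for the interaction 20.5% were positive, and after rescaling to TPM 9.92% of those called among 13889 genes and 12.5% among the same 11550, with no member called in either.

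**Figure D5:**
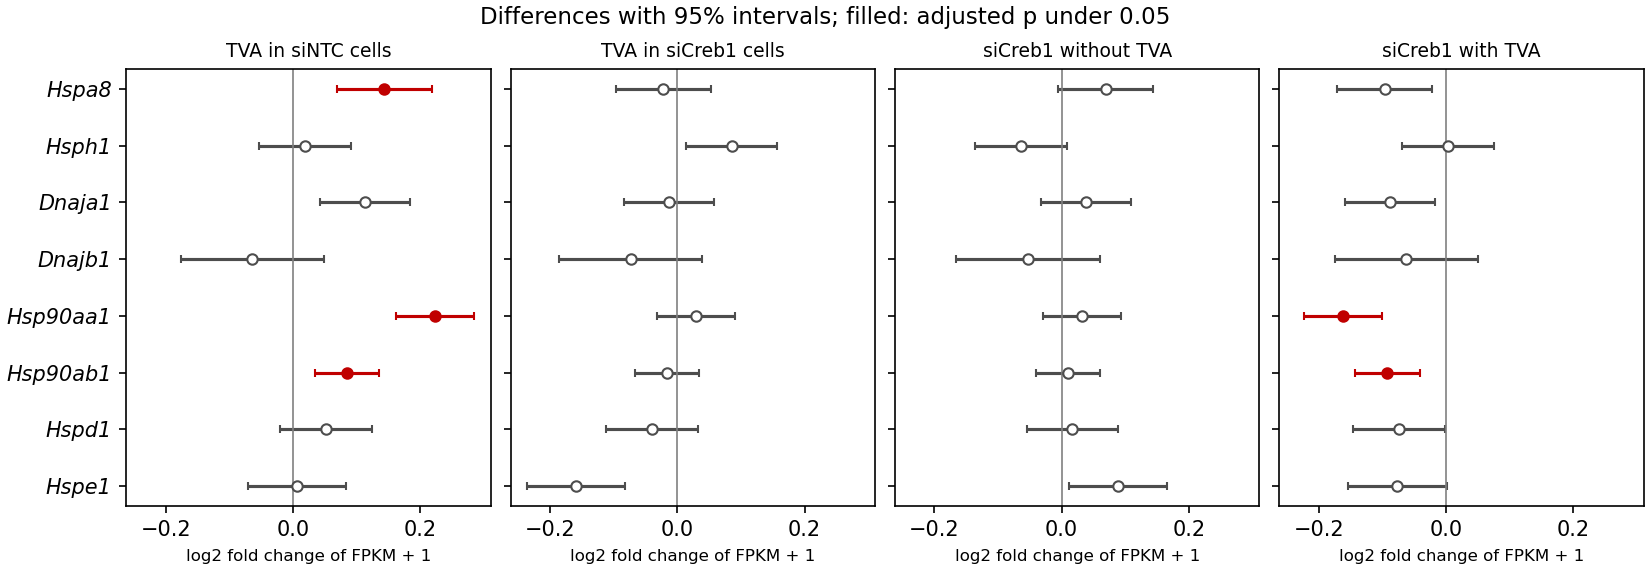
Log2 difference of each tested member in the 4 pairwise comparisons, with 95% intervals from limma and filled points for adjusted p under 0.05. Hsp90aa1 has the largest difference of the members with TVA in siNTC cells, at 0.22, and with siCreb1 under TVA, at -0.16.

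Without TVA, the knockdown gave 0 members higher and 0 lower in limma, beside 6.52% and 7.21% of all tested genes; 1 member, Hspe1, had an unadjusted p under 0.05 (0.09; adjusted p = 0.124), and limma-voom called 0. Quantile normalization called 3 members there, Hspa8, Hsp90ab1 and Hspe1, all higher. No member's libraries were separate in either direction, beside 15.5% of tested genes above and 16% below. The median was 0.02, beside 0.00 for all tested genes. Of all called genes 47.5% were higher, and after rescaling to TPM 76.1% among 13889 genes and 75.4% among the same 11550, where 1 member was called, Hspe1 (0.14, adjusted p = 0.0477). This comparison shares its control libraries with that of TVA in siNTC cells.

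With TVA, siCreb1 cells had 0 members higher and 2 lower (Hsp90aa1 and Hsp90ab1) than siNTC cells, beside 4.64% and 5.51% of all tested genes. The median was -0.08, beside -0.01 for all tested genes. The siCreb1 libraries were all below for 5 members, Hspa8, Hsp90aa1, Hsp90ab1, Hspe1 and Dnaja1, beside 17.6% of tested genes, and all above for 0, beside 14.3%. Of all called genes 45.7% were higher, but 64.0% after quantile normalization of the same genes, and after rescaling to TPM 84.1% among 13889 genes and 83.8% among the same 11550; none of these called a member. This comparison uses the siNTC+TVA libraries that the TVA comparison also uses, so their values for Hsp90aa1 and Hsp90ab1 are not separate evidence. Depth moved with these groups, as given above, and so did myeloid markers: the list summed to 5.50 to 6.89 FPKM in siNTC+TVA and 8.61 to 9.50 in siCreb1+TVA, and Lyz2 was higher by 0.40 (adjusted p = 0.0478). Immediate early genes summed to 244 to 254 and 227 to 235 FPKM in these groups. Their part in the result was not tested.

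Averaged over both siRNAs, TVA raised 1 member (Hsp90aa1, 0.13, SE 0.0196, limma adjusted p = 0.00355) and lowered 0, beside 3.18% and 2.37% of all tested genes, with a median of 0.04 beside 0.00; Hsp90aa1 was called in 20 of 20 alternatives. Of all called genes 57.3% were higher, and after rescaling to TPM 70.6% among 13889 genes and 69.8% among the same 11550. Averaged over TVA, the knockdown raised 0 members and lowered 1 (Hsp90aa1, -0.06, SE 0.0196, adjusted p = 0.0404), beside 9.53% and 11% of all tested genes, with a median of -0.03 beside -0.01. That call was kept in 5 of 20 alternatives, with values from -0.076 to -0.015 and adjusted p from 0.0182 to 0.764. Among the libraries it was kept without siNTC replicate 2 or siCreb1+TVA replicate 2 and lost without each of the other 10. Of all called genes 46.4% were higher, and after rescaling to TPM 78.8% among 13889 genes and 78.6% among the same 11550. For Hsp90aa1 the TVA average combines 0.22 in siNTC and 0.03 in siCreb1 cells, and the knockdown average combines 0.03 without TVA and -0.16 with it, which have opposite signs.

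Other chaperone genes come from 8 lists, which without the members hold 94 genes, 79 of them tested. TVA in siNTC cells raised 2 and lowered 1, or 2.53% and 1.27%, beside 4.49% and 2.88% of all tested genes. These were Dnajc9, a histone-binding J-domain protein (0.24, adjusted p = 0.00352), Fkbp5, a co-chaperone of HSP90 in steroid receptor complexes (0.19, adjusted p = 0.0154), and Dnajb2 (-0.33, adjusted p = 0.0255). TVA in siCreb1 cells raised 0 and lowered 0 in limma, with 7 at an unadjusted p under 0.05 and 1 called by limma-voom. The interaction called 0 more positive and 2 more negative in siCreb1 cells, or 0% and 2.53%, beside 0.459% and 1.78% of all tested genes. The 2 were Dnajc9 (-0.26, adjusted p = 0.0343) and Bag1, a nucleotide exchange factor of HSP70 (-0.16, adjusted p = 0.0417). Of these limma-voom called Dnajc9 and not Bag1 (adjusted p = 0.0955, of 0.0325 to 0.155 over the alternatives). Of the 8 tested ER counterparts, 0 were called in any pairwise comparison by limma. In any of them at most 2 had an unadjusted p under 0.05, and limma-voom called at most 1. Hsp90b1, the HSP90 of the ER, was measured at 68.2, 62.9 and 66.7 FPKM in siNTC and 69.8, 71.5 and 74.7 in siNTC+TVA. Its difference was 0.13 (limma, adjusted p = 0.0624), and limma-voom called it higher (0.13, adjusted p = 0.0150). For TVA averaged over the siRNAs limma-voom also called Hsp90b1 higher (0.09, adjusted p = 0.0195). For the knockdown averaged over TVA, 1 of the 8 was called, Dnajb9, a J-domain protein of the ER (-0.22, adjusted p = 0.0272), which limma-voom also called lower (-0.24, adjusted p = 0.00777).

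Among the same 79 genes the knockdown gave 2 higher and 7 lower without TVA, or 2.53% and 8.86%, beside 6.52% and 7.21% of all tested genes. With TVA it gave 1 higher and 8 lower, or 1.27% and 10.1%, beside 4.64% and 5.51%. Averaged over TVA it gave 2 higher and 14 lower, or 2.53% and 17.7%, beside 9.53% and 11%. TVA averaged over the siRNAs gave 1 higher, Dnajc9 (0.11, adjusted p = 0.0441), and 0 lower, or 1.27% and 0%, beside 3.18% and 2.37%. Bag2, which inhibits the ubiquitin ligase CHIP, was lower by -0.60 without TVA (adjusted p = 0.00902) and -0.58 with it (adjusted p = 0.0152). By limma-voom on the recovered reads the Bag2 values were -1.02 and -0.90, so their size depended on the method. Bag1 was lower by -0.11 without TVA (adjusted p = 0.0151) and -0.27 with it (adjusted p = 0.000329). Among the 14 genes of the TRiC chaperonin, which folds actin and tubulin, and prefoldin, Pfdn5 and Vbp1 were lower without TVA, and Cct2, Cct3, Cct5 and Cct8 with it, by -0.12, -0.12, -0.12 and -0.09. Among the HSP90 co-chaperones, Cdc37, which brings kinases to HSP90, was lower without TVA (-0.10, adjusted p = 0.0181), as was Unc45a (-0.19), while Cdc37l1 was higher in both (0.18 and 0.25) and Fkbp5 higher without TVA (0.15). Dnajb2 was lower without TVA (-0.37), and Dnaja2 (-0.14) and Dnajc9 (-0.16) were lower with it. Averaged over TVA, the J-domain genes called were Dnajb2 (-0.22), Dnaja2 (-0.11), Dnajc8 (-0.10) and Dnajc7 (0.09). Among the HSP90 co-chaperones called by limma in this average, the largest changes were Cdc37l1 (0.22), Sugt1 (-0.14), Unc45a (-0.11) and Cdc37 (-0.07). In the same list limma-voom called Ppid higher (0.14, adjusted p = 0.00915), which limma did not call. Among the TRiC and prefoldin genes called by limma the largest were Vbp1 (-0.15), Pfdn5 (-0.11), Cct2 (-0.08) and Cct5 (-0.08). Bag2 (-0.59, and -0.96 by limma-voom) and Bag1 (-0.19) were the exchange factors called. The 15 tested mitochondrial chaperones and proteases other than Hspd1 and Hspe1, the 4 other HSP70 and HSP110 genes, the 4 heat shock factors and their regulator, and the 2 small heat shock proteins held 0 called genes in limma in all 7 comparisons. At most 3 of these per list and comparison had an unadjusted p under 0.05, and limma-voom called 2, both in the mitochondrial list for the knockdown averaged over TVA. These knockdown values share the scaling differences given for all called genes.

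Genes that define those lists were measured as follows. Hsf1, the main heat shock factor, was at 8.30 ± 0.539 FPKM in siNTC, 8.06 ± 0.0374 in siNTC+TVA, 8.27 ± 0.141 in siCreb1 and 7.97 ± 0.329 in siCreb1+TVA (mean ± SD, n = 3), and Hsf2 at means of 1.59 to 1.76. Hspa9, the HSP70 of mitochondria, had group means of 68.8 to 71.7 FPKM. Stip1, which links HSP70 to HSP90, was at 70.2 ± 2.20 FPKM in siNTC, and Hspa4, an HSP110 relative, at 37.7 ± 0.471. Bag3, induced by stress in many cells, was at group means of 1.29 to 1.51 FPKM. Hspa2 and Hspa1l, forms best known from testis, were under 1 FPKM on average, and Hspb1, a small heat shock protein, was listed at 0 in 9 of 12 libraries and at no more than 0.232 FPKM in the others.

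The genes most like the members were found from the mean standardised log2(FPKM + 1) of the 8 tested members over the 12 libraries, by the smallest mean absolute difference from it. Gtse1, a protein of the mitotic spindle, was closest at 0.269, ahead of Eif3l, a subunit of translation initiation factor eIF3, at 0.301, Lpgat1 at 0.302, Dld, a mitochondrial dehydrogenase subunit, at 0.306, Spidr at 0.326, Ywhae, a 14-3-3 protein, at 0.342, Myl12a, a myosin light chain, at 0.344 and Hnrnpab at 0.357. The median over tested genes was 1.09. Of the members Hsp90ab1 was closest to their mean, at 0.288, and Hspe1 farthest, at 1.00. Gtse1 was measured at group means of 8.44 FPKM in siNTC, 11.4 in siNTC+TVA, 9.67 in siCreb1 and 9.14 in siCreb1+TVA, and Eif3l at 57.8, 61.4, 57.9 and 57.1.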

How the data were processed

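Whole-transcript RNA sequencing covered 12 libraries of mouse CD8+ T cells, 3 in each of 4 groups. The authors deposited FPKM per gene, on GRCm38 (mm10) by the submitters' processing notes; the aligner, the counting tool and their settings are not given in the sources used here. Read counts were recovered by scaling each library's FPKM by gene length so that values were whole within 0.01, which held for at least 99.995% of values. Differences were fitted by limma 3.58.1 (R 4.3.3, with an intensity trend) on log2(FPKM + 1) for the 11550 genes that averaged 1 FPKM or more over the libraries, in a single fit of all 12 libraries with a term per group. P-values were adjusted by Benjamini-Hochberg over all tested genes, with a threshold of 0.05; the fit was tested on simulated data. Alternatives were a pseudocount of 0.1, no filter, a filter at 5, quantile normalization, TPM with its own filter at 1 (13889 genes), TPM on the genes of the FPKM filter (chosen after seeing the data), no mean-variance trend, a replicate block, limma-voom on the recovered reads, the compared libraries alone, Hspa1a and Hspa1b summed, and leaving out each library. Other steps used Python 3.11.15, pandas 2.3.3, numpy 2.4.6 and matplotlib 3.10.9. Intervals are 95% and come from the spread between libraries in the limma fit, which may be technical. They cover no other source of error. A floor of 3 reads was set for describing low levels and entered no test. Named genes are Creb1, the 10 members, from each list the called genes (up to 4 per list and comparison by size of change) with those that define it, and the 8 genes most like the members; where more than 4 of a list, or list members beyond this rule, are named, they were chosen after their values were seen. The members and lists were chosen with earlier results of these data known.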

Additional observations from a re-analysis of the deposited data

Results flagged for a closer look

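The interaction term of the limma fit tests whether the effect of TVA differs between siCreb1 and siNTC cells. It passed the threshold for 5 genes among the members, the chaperone lists and the marker lists. They were 1 of 8 tested members, 2 of 79 other chaperone genes, 1 of 8 CD8 T cell markers and 1 of 8 immediate early genes. Of all tested genes 0.459% were called positive and 1.78% negative. As the effect in siCreb1 cells minus that in siNTC cells, on the log2 scale, the term was -0.19 for Hsp90aa1 (adjusted p = 0.0306), -0.16 for Bag1 (0.0417), -0.26 for Dnajc9 (0.0343), -0.38 for Gzmb, the granzyme B gene (0.00254), and 0.36 for Zfp36, an immediate early gene that encodes an mRNA decay factor (0.00663). Over 20 alternatives Gzmb and Zfp36 were called in 20, Dnajc9 in 9, and Hsp90aa1 and Bag1 in 5 each, with adjusted p up to 0.0101, 0.0348, 0.0895, 0.192 and 0.155 in that order. Among fits that leave out a library, Bag1 was kept without siNTC replicate 1 or siNTC+TVA replicate 3 and lost without each of the other 10 (adjusted p up to 0.102), and by limma-voom it was lost (0.0955). Dnajc9 was kept without siNTC replicate 2, siNTC+TVA replicate 1 or siCreb1+TVA replicate 3 and lost without each of the other 9 (up to 0.0895). Hsp90aa1 was kept without siNTC replicate 1 or siCreb1+TVA replicate 2. Gzmb had means of 72.4 FPKM in siNTC, 89.9 in siNTC+TVA, 97.9 in siCreb1 and 92.8 in siCreb1+TVA. Zfp36 had means of 30.8, 27.1, 24.8 and 28.3 FPKM in the same order. Single outlying libraries were not tested for, since each group has 3 libraries.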

How the results depend on the processing

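Of 1152 alternative values of the 8 tested members, 1063 stayed on their side of the threshold, 21 passed it newly and 68 fell short of it; the cause was not tested. Of the 987 for results that were not called 34 changed sign, and of the 165 for called results 0 did. Many of them could not change sign. Changing the FPKM filter or the trend, adding the replicate block or fitting only the compared libraries leaves the value as it was. So does leaving out a library outside a pairwise comparison. In these alternatives only the p-value could move. Summing Hspa1a and Hspa1b left the pair under the filter and every fit as it was, so it is in no tally of alternatives. The Creb1 difference was called in 20 of 20 alternatives, and from -2.35 to -2.25 without each library. The members called for TVA in siNTC cells were 3, but 1 with no filter, after TPM scaling, with no mean-variance trend and in a fit of only the libraries compared. For TVA in siCreb1 cells limma-voom called 1 in place of 0, for TVA averaged over siRNA 2 in place of 1, for the interaction 3 in place of 1, for siCreb1 averaged over TVA 2 in place of 1 and for siCreb1 with TVA 4 in place of 2. With no filter, quantile normalization, TPM or no trend, the interaction and siCreb1 averaged over TVA each gave 0; siCreb1 with TVA gave 1 with no filter or no trend and 0 with quantile normalization or TPM. Rescaling to TPM also let in more genes, 13889 in place of 11550. TPM on the same 11550 genes, chosen after seeing the data and in no tally, gave 1 member for TVA in siNTC cells, 1 for siCreb1 without TVA, and 0 for siCreb1 with TVA, the interaction and siCreb1 averaged over TVA. Quantile normalization gave 3 for siCreb1 without TVA, where limma gave 0. With the replicate block the interaction and siCreb1 averaged over TVA gave 0, siCreb1 with TVA gave 1 in place of 2 and TVA in siNTC cells gave 2 in place of 3; Hsp90ab1 was the member lost in the latter 2 comparisons (adjusted p = 0.0557 and 0.0891), and Hsp90aa1 in the others. No pairing by replicate number was detected. Deviations of same-numbered libraries correlated across genes at -0.06 to 0.06, and 4 of 18 matches were best with their own number. These values cannot exclude a pairing, since they come from few libraries a group. Leaving out each library, the members called ran from 1 to 3 for TVA in siNTC cells, 0 to 0 for TVA in siCreb1 cells, 0 to 1 for siCreb1 without TVA, 1 to 3 for siCreb1 with TVA, 0 to 3 for the interaction, 1 to 2 for TVA averaged and 0 to 1 for siCreb1 averaged. The count was 3 for the interaction, 2 for TVA averaged and 1 for siCreb1 without TVA when siNTC replicate 1 was left out, and 2 for TVA averaged and 1 for siCreb1 without TVA without siCreb1 replicate 1. Each such fit left a group with 2 libraries. A fit of only the libraries compared is not possible for the interaction or the averages.

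Counts over all genes moved by more than 1.5 times in these cases. TVA in siNTC cells gave 852 genes, but 563 with no filter, 513 after TPM, 368 with only the libraries compared and 558 without siNTC+TVA replicate 2. TVA in siCreb1 cells gave 62, but 37 after TPM, 34 with the replicate block, 161 by limma-voom, 39 with only the libraries compared, and 30 to 35 without siCreb1 replicate 1 or 2 or any siCreb1+TVA replicate. For siCreb1 without TVA the count was 1586, but 992 with no filter, 817 with only the libraries compared, and 1020 and 1054 without siCreb1 replicate 1 and 2. For siCreb1 with TVA it was 1172, but 683 with no filter, 694 after TPM, and 599 to 757 without any siNTC+TVA or siCreb1+TVA replicate. The interaction gave 259, but 131 after TPM, 449 by limma-voom, and 168 to 172 without siNTC+TVA replicate 2, siCreb1 replicate 1 or siCreb1 replicate 2. TVA averaged gave 641, but 385 with no filter and 364 after TPM. TPM on the same 11550 genes gave 556, 37, 740, 152 and 404 for TVA in siNTC cells, TVA in siCreb1 cells, siCreb1 with TVA, the interaction and TVA averaged. It moved the median of these genes by no more than 0.05 on the log2 scale, the most for siCreb1 with TVA.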

Other observations

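The ratio of Hspe1 to Hspd1, in FPKM over FPKM, was 1.27 ± 0.0624 in siNTC, 1.23 ± 0.0157 in siNTC+TVA, 1.33 ± 0.0733 in siCreb1 and 1.22 ± 0.0243 in siCreb1+TVA (mean ± SD, n = 3). The siCreb1 and siCreb1+TVA libraries did not overlap, at 1.25 to 1.39 and 1.20 to 1.24.

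Immediate early genes sensitive to handling summed to 220 to 231 FPKM in siCreb1 and 227 to 235 in siCreb1+TVA, below the sums in siNTC cells given with the TVA comparison. Of the 8 tested, 5 were lower in siCreb1 than in siNTC without TVA, beside 7.21% of all tested genes. These were Btg2 (-0.30), Dusp1 (-0.34), Ier2 (-0.22), Junb (-0.26) and Zfp36 (-0.30). With TVA, 1 was lower, Btg2 (-0.19), beside 5.51%. Averaged over TVA, 5 were lower, beside 11%: Dusp1 (-0.26), Btg2 (-0.25), Ier2 (-0.17), Junb (-0.16) and Zfp36 (-0.12). The balance of knockdown calls over all genes moved with the scaling, as given above. Neither handling nor another cause of these differences was tested.

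With 3 libraries a group and labels that state no separate cultures, the changes in the most abundant members rest on a spread between libraries of unknown origin. RNA levels say nothing of protein amounts. Protein sequences were not used. The pair Hspa1a and Hspa1b is too close to 0 reads for any comparison.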
